A study of Mus musculus with 18 samples.

Results

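The enzymes that trim and finish the ends of transfer RNA were followed in prostates of mice with an epithelial deletion in Elac2 or with its A537T variant. The 5 genes were taken by symbol, out of the 55469 genes in each table: Elac2, its paralog Elac1, the mitochondrial RNase P subunits Trmt10c and Hsd17b10, and Trnt1. The question was whether the partners or the paralog were higher where Elac2 was mutated. No such increase was called: none of the 5 genes passed the test in any of the 4 comparisons with WT. In bulk tissue, with the libraries scaled by their size factors, Elac1 was at 0.997 to 1.07 times WT in the 4 mutant groups. Its 95% intervals together ran from 0.81 to 1.35 times WT. Elac2 itself was at 0.81 times WT in KO at 10 weeks and at 0.74 times at 30 weeks, neither past the test. Hsd17b10 was at 0.67 times WT in KO at 10 weeks, the largest difference among the 5 genes, and did not pass the test either.

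A tRNA is transcribed as a precursor with a 5′ leader and a 3′ trailer. RNase P removes the leader and RNase Z cuts off the trailer, after which a nucleotidyltransferase adds the bases CCA to the 3′ end, where the amino acid is later attached. Elac2 encodes the long form of RNase Z, which works in the nucleus and in mitochondria. Mitochondrial transcripts are long and carry tRNAs between the other genes, so that cutting at the tRNA ends also releases mRNAs and rRNAs. Elac1 encodes the short form of RNase Z, which is found outside mitochondria and acts on tRNAs that were cleaved while bound to stalled ribosomes, opening them for repair. Mitochondrial RNase P is made of proteins alone: Trmt10c, a methyltransferase that binds the precursor, Hsd17b10, a dehydrogenase that forms a complex with Trmt10c, and Prorp, which cuts. Trnt1 is the CCA-adding enzyme of both compartments.

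Ventral and lateral lobes of the prostate were taken from male C56NL/6N mice, with 3 mice in each of 6 groups: WT (ELAC2+/+), KO (ELAC2-/-) and A537T (ELAC2A537T) at 10 and at 30 weeks. In KO mice both copies of Elac2 have exon 8 flanked by loxP sites and removed by Cre under the probasin (Pb) promoter, which is active in prostate epithelium, so stromal, muscle and immune cells keep the gene. A537T mice carry the alanine-to-threonine change in both copies throughout the body. The TRAMP crosses were not analysed here. The 10-week libraries are labelled 10AF, 11AF and 12AF for WT, 13AF, 14AF and 15AF for KO, and 16AF, 17AF and 18AF for A537T. The 30-week libraries are 1AF, 2AF and 3AF for WT, 4AF, 5AF and 6AF for KO, and 7AF, 8AF and 9AF for A537T. Both mutant lines are compared with the same WT libraries of their age.

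Elac2 (ENSMUSG00000020549.14) spans bases 64979038 to 65002069 of chromosome 11 on the forward strand of GRCm38. Its transcript ENSMUST00000071891.11 has 2771 bases in 25 exons and 831 codons. The sequences below show what each mutation changes and are from the reference genome, 5′ to 3′. The coding exon removed in KO, at chr11:64985563-64985621, has 59 bases, which is 2.13% of the transcript, and leaves 2 bases over after whole codons.
Exon 8: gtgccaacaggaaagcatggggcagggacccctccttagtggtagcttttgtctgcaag
If exon 7 is spliced to exon 9, the reading frame shifts after 222 whole codons and meets its first stop after 233 codons, 11 codons into the new frame and within exon 9. The joined sequence starts 12 bases before the end of exon 7 and ends at that stop, in capitals.
Exon 7 to exon 9: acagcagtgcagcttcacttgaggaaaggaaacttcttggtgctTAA
The A537T change lies in exon 17, in an alanine codon at bases 64997968 to 64997970 of chromosome 11, shown in capitals in the reference sequence of chr11:64997956-64997982.
Codon of A537T: tgcagcctcacgGCTgtgtttgtgtcc
Of the 7 annotated Elac2 transcripts, 5 span exon 8 and 0 of those 5 lack it. Values are deposited per gene, not per transcript. A gene count therefore still takes in reads from all the other exons of an Elac2 transcript without exon 8, and it does not check the excision. A single-codon change leaves the gene count without a label of its own, so the A537T groups cannot be checked from it.

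The other 4 genes lie elsewhere. Elac1 (ENSMUSG00000036941.2) is on the reverse strand of chromosome 18, from 73735038 to 73754479, and Trmt10c (ENSMUSG00000044763.8) on the reverse strand of chromosome 16, from 56032609 to 56037819. Hsd17b10 (ENSMUSG00000025260.10) is on the forward strand of chromosome X, from 152001845 to 152004442, and Trnt1 (ENSMUSG00000013736.16) on the forward strand of chromosome 6, from 106769120 to 106782474. The ends of Elac2 and Trnt1 overlap genes on the opposite strand, Arhgap44 and Crbn, and the authors quantified with a strand-specific setting.

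Libraries held 6569642 to 11225281 reads assigned to genes. All 10 luminal prostate markers were detected in every library, but their summed share of counts ran from 0.49% to 11.8%, and 2 other tissues were present unevenly. The 8 seminal vesicle genes (Svs2, Svs5, Pate4 and others) took 6.55 to 10.3% of counts in KO at 10 weeks against 0.00081 to 4.64% in WT, and in A537T 0.037 to 0.19%. Among 30-week libraries the share was 6.32 to 9.17% for 4AF, 6AF, 7AF and 9AF, and at most 0.00034% for WT, 5AF and 8AF, where 3 to 8 of the 8 genes were above 0. The 20 skeletal muscle genes took 3.83 to 12.4% of counts in WT at 10 weeks, against 0.058 to 2.00% for KO and 1.502 to 4.26% for A537T, and at most 0.070% later. Immune markers (6 genes) together took 0.00853 to 0.00959% of counts in WT at 30 weeks, against 0.0130 to 0.0235% for KO and 0.01545 to 0.03255% for A537T, highest in 5AF and 8AF. Cd68 did not follow this sum, with 11.07 normalized counts in 4AF against 26.54 to 44.93 in WT. The 4 basal markers together took 0.0123 to 0.0158% in KO at 10 weeks, 0.00630 to 0.0110% in WT and 0.008765 to 0.04035% in A537T. Among them, Krt5 overlapped between KO and WT, with 256.9 normalized counts in 13AF and 327.7 in 10AF. In bulk tissue, fewer cells of a type and less RNA per cell cannot be told apart.

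All 5 genes were expressed in every library, at modest levels. Levels are in RPM, the recovered reads of a gene for each 1000000 reads of its library. Elac2 had 80 to 206 reads per library, Elac1 126 to 234, Trmt10c 71 to 179, Hsd17b10 151 to 587 and Trnt1 108 to 249, so counting alone gives a relative SD of 4.13 to 11.9% per library. Per kilobase of transcript, Hsd17b10 was the most abundant with a median of 32.7 RPM over the 18 libraries. Trnt1 followed with 8.78, then Elac2 with 5.85, Trmt10c with 4.03 and Elac1 with 3.81. The paralog was thus the least abundant of the 5 per length, close to Trmt10c. Elac1 was also the steadiest, with a coefficient of variation of 11.01% over all libraries, against 14.8% for Trmt10c, 17.3% for Trnt1, 19.96% for Elac2 and 24.0% for Hsd17b10.

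**Figure D1:**
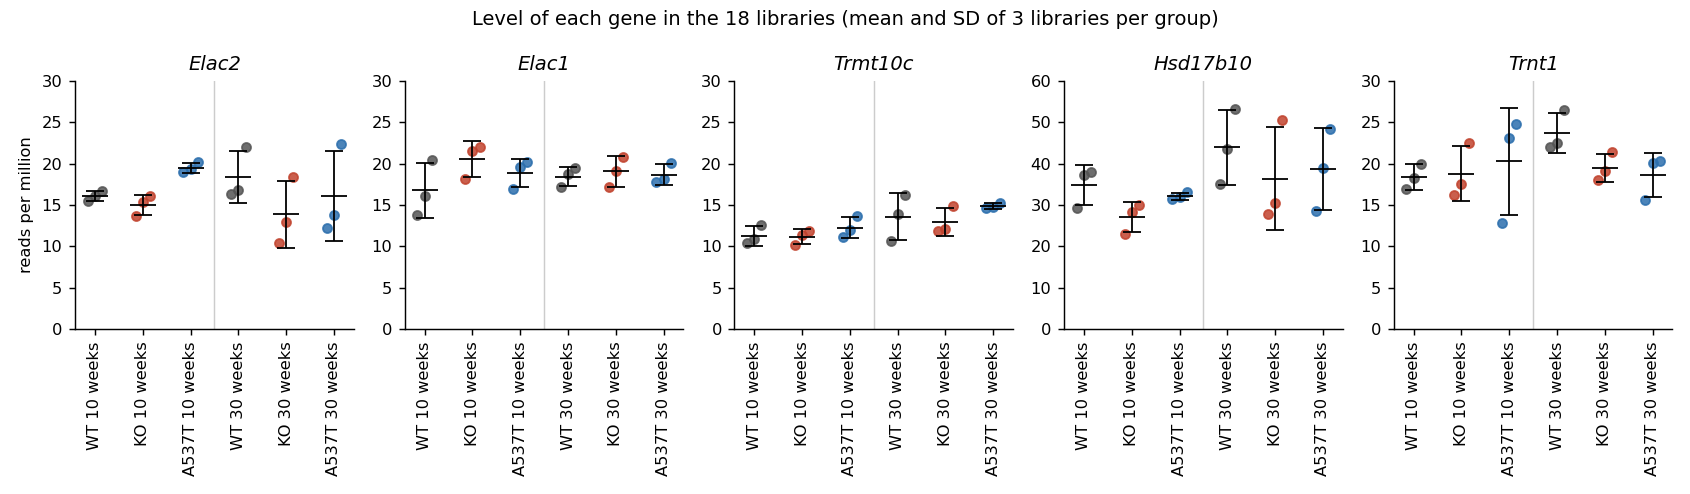
RPM of Elac2, Elac1, Trmt10c, Hsd17b10 and Trnt1 (vertical axes, from 0, wider for Hsd17b10) in WT (grey), KO (red) and A537T (blue) libraries at 10 and 30 weeks. Each point is a library, and the bars are the mean and SD of 3 libraries. Elac1 lies between 13.8 and 22.1 in all libraries, whereas Elac2 spreads from 10.3 to 22.4 and Hsd17b10 from 23.0 to 53.2.

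Ordered by mean level, the groups of Elac2 ran from 19.5 ± 0.60 RPM (SD, n = 3) in A537T at 10 weeks, through 18.4 ± 3.13 in WT at 30 weeks, 16.1 ± 5.48 in A537T at 30 weeks, 16.1 ± 0.61 in WT at 10 weeks and 15.03 ± 1.24 in KO at 10 weeks, to 13.9 ± 4.09 in KO at 30 weeks. Each group overlapped the next in this order. The KO groups were therefore the lowest for Elac2, but within the spread of their neighbours. The tables were normalized separately, so levels across ages are set side by side without a test.

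For Elac1 the order ran from 20.6 ± 2.14 RPM (SD, n = 3) in KO at 10 weeks and 19.1 ± 1.82 in KO at 30 weeks, over 18.9 ± 1.73 and 18.7 ± 1.24 in A537T at 10 and 30 weeks, to 18.4 ± 1.19 and 16.8 ± 3.34 in WT at 30 and 10 weeks. Neighbouring groups again overlapped throughout. For Trmt10c the highest mean was 14.9 ± 0.31 in A537T at 30 weeks and the lowest 11.2 ± 0.87 in KO at 10 weeks, also with overlaps at each step. Hsd17b10 was highest in WT at 30 weeks (43.9 ± 9.05) and lowest in KO at 10 weeks (27.1 ± 3.68), and only the last 2 groups of its order, A537T and KO at 10 weeks, had ranges apart. Trnt1 was highest in WT at 30 weeks (23.7 ± 2.43), and its other 5 groups had means of 18.4 to 20.3.

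Elac2, the targeted gene, was compared first, on counts divided by the size factor of each library within its table (normalized counts). At 10 weeks Elac2 in KO had 119, 111 and 115 normalized counts (13AF, 14AF, 15AF), against 124, 142 and 166 in WT (10AF, 11AF, 12AF). All 3 KO libraries lay below all 3 WT libraries, as was the case for 14.3% of all genes tested in that direction and for 26% in either direction. The log2 fold change was -0.31 (95% interval -0.70 to 0.07) with an adjusted p of 0.325 (limma, Benjamini-Hochberg over 15089 genes). The WT library nearest to KO was 10AF, where the 8 seminal vesicle genes together took 4.64% of counts, the largest share among WT. Svs2, Svs5 and Pate4 carried this share. Svs1, Svs3a, Svs3b, Svs4 and Svs6 were higher in 11AF, with 1870 normalized counts of Svs1 against 158.5 in 10AF. With the skeletal muscle score as a covariate, a planned setting, the value was -0.29. With the seminal vesicle score as a covariate, a setting added after the data were seen, the value was -0.16, and with every library scaled to the same total it was -0.10 while the median of all genes moved to 0.20.

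The 30-week KO libraries had for Elac2 98.4, 151 and 122 normalized counts (4AF, 5AF, 6AF), against 149.6, 153 and 194 in WT (1AF, 2AF, 3AF). Libraries 4AF and 6AF lay below WT, while 5AF fell inside the WT range. The log2 fold change was -0.43 (95% interval -0.90 to 0.04, adjusted p = 0.478 by limma). The 2 low libraries were those with 8.53% and 6.32% seminal vesicle counts, against under 0.0001% in 5AF. Without them the value was -0.12, from the single KO library 5AF, which is assumed to vary like WT. The part of seminal vesicle RNA in the difference was not tested apart from these values.

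A537T libraries at 10 weeks had for Elac2 173, 165 and 158 normalized counts (16AF, 17AF, 18AF), against 126, 143 and 167 in WT. The 3 mutant libraries lay at the upper end of the WT range and overlapped it, with a log2 fold change of 0.19 (95% interval -0.19 to 0.58, adjusted p = 0.796 by limma). In RPM, the 3 A537T libraries (18.99 to 20.2) were all above the 3 WT libraries (15.5 to 16.7), as were 8.83% of all genes under that scaling (12.8% were apart in either direction). With every library scaled to the same total the log2 value was 0.33, beside a median of 0.15 for all genes, and its adjusted p was 0.706.

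In A537T at 30 weeks Elac2 had 121, 189 and 114 normalized counts (7AF, 8AF, 9AF), against 147, 150.2 and 191 in WT. Libraries 7AF and 9AF were below WT and 8AF was close to the highest WT library. The log2 fold change was -0.23 (95% interval -0.76 to 0.30, adjusted p = 0.658 by limma). As in KO, the 2 low libraries were those with seminal vesicle RNA, at 7.24% and 9.17%. Without both, the value was 0.23, the opposite direction, from the single A537T library 8AF, which is assumed to vary like WT. Leaving out both was a setting added after the data were seen. With the seminal vesicle score as a covariate the value was 0.19.

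Elac1, the paralog that cuts the same end of tRNAs outside mitochondria, stood within 0.095 of WT on the log2 scale in all 4 comparisons. In KO at 10 weeks it had 159.8, 148 and 166 normalized counts, against 163, 137 and 143 in WT. The groups overlapped, and the log2 fold change was 0.09 (95% interval -0.25 to 0.43, adjusted p = 0.728 by limma), or 0.84 to 1.35 times WT. At 30 weeks the KO libraries had 182, 172 and 163 against 152, 175 and 171 in WT (log2 fold change 0.05, 95% interval -0.24 to 0.35, adjusted p = 0.893). An increase of Elac1 beyond 1.35 times WT at 10 weeks or 1.27 times at 30 weeks lies outside these intervals, and smaller ones in either direction remain within them. These limits hold for the scaling by size factors and for bulk tissue. They set no limit for the epithelium alone, where the deletion is.

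In A537T at 10 weeks Elac1 had 151, 169 and 158 normalized counts, against 171, 142 and 147 in WT (log2 fold change 0.06, 95% interval -0.30 to 0.42, adjusted p = 0.940 by limma). At 30 weeks it had 156, 169.7 and 169.8, against 152, 174 and 171 in WT, with a log2 fold change of -0.0042 (95% interval -0.30 to 0.29, adjusted p = 0.992). Per fold, these intervals run from 0.81 to 1.34 and from 0.81 to 1.22 times WT. Scaled to the same total, Elac1 stood at 0.31 for KO and 0.20 for A537T at 10 weeks on the log2 scale. The medians of all genes under that scaling were 0.20 and 0.15, and Elac1 did not pass the test there either.

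**Figure D2:**
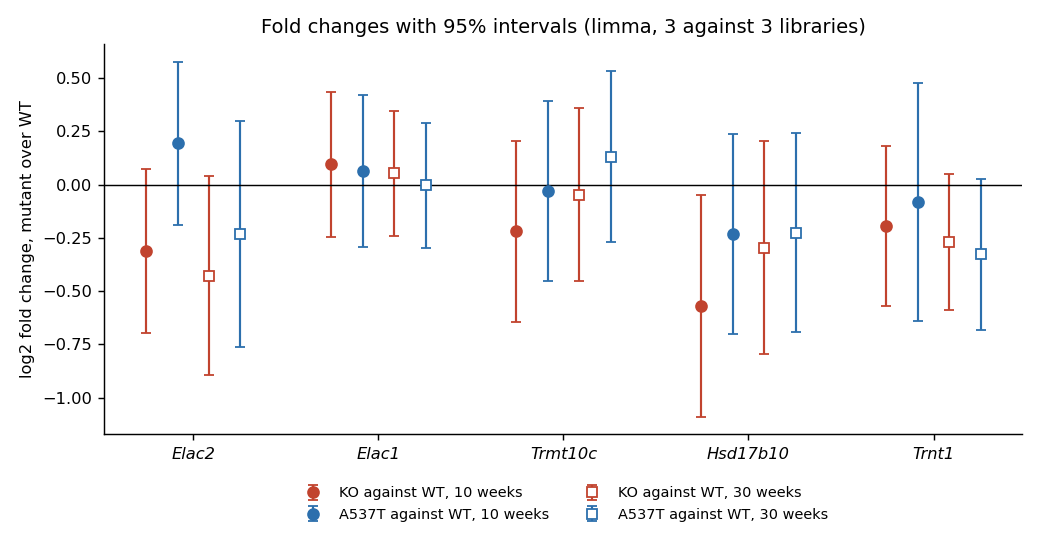
Log2 fold changes of the 5 genes (horizontal axis) in KO (red) and A537T (blue) against WT at 10 weeks (filled circles) and 30 weeks (open squares), with 95% intervals from limma on log2(normalized count + 1). The intervals of Elac1 all include 0, and the interval of Hsd17b10 in KO at 10 weeks, from -1.09 to -0.05, is the only one of the 20 that leaves out 0.

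Since both counts come from the same library, the ratio of Elac1 to Elac2 reads does not depend on the scaling between libraries. For KO at 10 weeks the ratio was 1.34, 1.33 and 1.44, and in WT 1.31, 0.965 and 0.859. The KO values were all above WT, 10AF being close, and the mean log2 ratio was higher by 0.41 (2-sided exact permutation test, p = 0.1, the smallest p that 3 against 3 libraries allow). In KO at 30 weeks the ratio was 1.85, 1.136 and 1.33, against 1.02, 1.143 and 0.883 in WT, a log2 difference of 0.48 (exact permutation p = 0.2) in which 5AF overlapped WT.

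In A537T the ratio was 0.871, 1.03 and 1.00 at 10 weeks, against 0.879 to 1.35 in WT of that table (log2 difference -0.13, exact permutation p = 0.7). At 30 weeks it was 1.29, 0.898 and 1.49, against 0.896 to 1.16 in WT (log2 difference 0.23, exact permutation p = 0.4). Ratios of 1.29 and above were found in 8 libraries: the 3 KO libraries at 10 weeks, 10AF, 4AF, 6AF, 7AF and 9AF. These 8 were also the libraries in which seminal vesicle genes together took 4.64% of counts or more. In the other 10 libraries the ratio was 0.859 to 1.143. The summed share was carried mainly by Svs2, Svs5 and Pate4. By Svs1, Svs3a, Svs3b and Svs6 the match fails in 10AF and 11AF. Svs1 had 158.5 normalized counts in 10AF and 1870 in 11AF, whose ratios were 1.31 and 0.965.

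**Figure D3:**
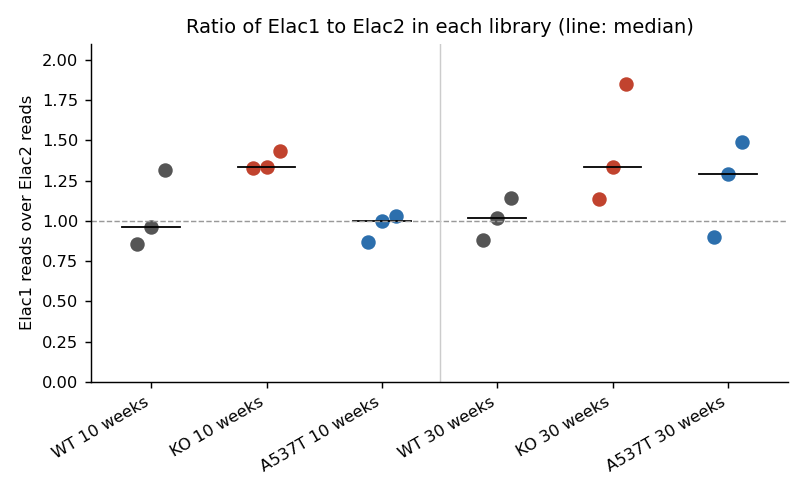
Elac1 reads over Elac2 reads in each library (vertical axis, from 0), with WT in grey, KO in red and A537T in blue, and a line at the median of each group. The WT values are from the tables of KO. KO libraries at 10 weeks lie at 1.33 to 1.44, while at 30 weeks 4AF and 6AF among KO, and 7AF and 9AF among A537T, lie above their WT group.

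Among the mitochondrial RNase P subunits, the largest difference was that of Hsd17b10. In KO at 10 weeks it had 223, 231 and 173 normalized counts, against 235, 323 and 386 in WT. The KO libraries were all lower, though 14AF and 10AF differed little, and the log2 fold change was -0.57 (95% interval -1.09 to -0.05), or 0.67 times WT. The unadjusted p was 0.0356, and 19.4% of all genes had an unadjusted p under 0.05 in that comparison. The adjusted p was 0.234 by limma. Without the WT library 10AF the log2 fold change was -0.77 with an adjusted p of 0.0363, and 2886 genes were called in place of 0. With the skeletal muscle score as a covariate it was -0.19. With the seminal vesicle score, a setting added after the data were seen, it was -0.34. The part of basal cells, whose markers together took a larger share of counts in all 3 KO libraries than in WT, was not tested.

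In A537T at 10 weeks Hsd17b10 had 285, 286 and 246 normalized counts, against 247, 333 and 399 in WT, and the groups overlapped (log2 fold change -0.23, adjusted p = 0.797 by limma). At 30 weeks KO had 290.3, 418 and 264, against 472, 328 and 383 in WT (log2 fold change -0.30, adjusted p = 0.621). A537T at that age had 343, 409 and 266, against 472, 329 and 384 (log2 fold change -0.23, adjusted p = 0.622). The highest mutant libraries at 30 weeks, 5AF and 8AF, were those without seminal vesicle RNA. Without 4AF and 6AF the KO value was 0.10, and without 7AF and 9AF the A537T value was 0.06, both in the opposite direction. Each comes from a single mutant library, 5AF or 8AF, that is assumed to vary like WT. Both settings were added after the data were seen.

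Trmt10c, which binds the precursor tRNA together with Hsd17b10, differed less. In KO at 10 weeks it had 88.5, 83.1 and 85.7 normalized counts, against 83.2, 107 and 112 in WT, with 10AF as low as KO (log2 fold change -0.22, 95% interval -0.65 to 0.21, adjusted p = 0.498 by limma). In A537T at 10 weeks it had 107, 96.1 and 107, against 89.1, 112 and 117 (log2 fold change -0.03, adjusted p = 0.978). At 30 weeks it had 116, 123 and 112 in KO against 144, 99.1 and 123 in WT (log2 fold change -0.05, adjusted p = 0.933). A537T at 30 weeks, with 134, 124 and 137, lay inside the WT range of 98.6 to 143 (log2 fold change 0.13, adjusted p = 0.749).

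The nuclease subunit Prorp had a mean of 76.5 ± 13.9 normalized counts in KO at 10 weeks (SD, n = 3) against 73.6 ± 21.3 in WT (log2 fold change 0.08, adjusted p = 0.887 by limma). Its log2 fold changes in the other 3 comparisons were 0.19 (adjusted p = 0.864), -0.07 (adjusted p = 0.919) and 0.04 (adjusted p = 0.922), in the order A537T at 10 weeks, KO and A537T at 30 weeks. None of the 3 subunits of mitochondrial RNase P was therefore called higher or lower in either mutant.

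Trnt1, which adds CCA after Elac2 has cut, was spread widely at 10 weeks. In KO at 10 weeks it had 168, 132 and 131 normalized counts, against 160.4, 156 and 175 in WT, and 13AF fell inside the WT range (log2 fold change -0.20, adjusted p = 0.496 by limma). In A537T at 10 weeks it had 115, 201 and 195, against 174, 165 and 186, and 16AF was the lowest and 17AF and 18AF the highest of the 6 (log2 fold change -0.08, adjusted p = 0.951).

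At 30 weeks Trnt1 in KO had 182, 176 and 171 normalized counts, against 200.2, 248 and 194 in WT. The 3 KO libraries were all below WT, as were 8.41% of all genes (16.3% were apart in either direction). The log2 fold change was -0.27 (95% interval -0.59 to 0.05), with an unadjusted p of 0.0877 and an adjusted p of 0.509 by limma. In A537T at 30 weeks it had 178, 169.7 and 146, against 193, 239.7 and 188 in WT, again all lower, as were 9.4% of all genes (18.6% in either direction). There the log2 fold change was -0.33 (95% interval -0.68 to 0.03), with an unadjusted p of 0.0653 and an adjusted p of 0.391. The 2 comparisons share their WT libraries. The value was -0.27 without 4AF and 6AF and -0.28 without 7AF and 9AF, each from a single mutant library, 5AF or 8AF, that is assumed to vary like WT. Immune markers together took a larger share of counts in all 6 mutant libraries than in WT (0.0130% or more against 0.00959% or less). Ptprc and Cd74 were higher in all 6, whereas Cd3e, Cd79a, Cd68 and Lyz2 overlapped WT or fell below it. Cd68 had 11.07 normalized counts in 4AF against 26.54 to 44.93 in WT. The part of immune cells in the Trnt1 difference was not tested.

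Over the 20 tests of the 5 genes, 0 passed an adjusted p of 0.05, and 1 (Hsd17b10 in KO at 10 weeks) had an unadjusted p under 0.05. The groups did not overlap in 4: Elac2 and Hsd17b10 in KO at 10 weeks, and Trnt1 in both mutants at 30 weeks, all lower than WT. That is 2 of 5 in KO at 10 weeks, where 26% of all genes had groups apart, 1 of 5 in KO (16.3%) and 1 of 5 in A537T (18.6%) at 30 weeks, and 0 of 5 in A537T at 10 weeks (11.9%). Over so few genes these counts do not set the 5 apart from other genes. At this number of libraries 0% of genes passed the limma test in each of the 4 comparisons. Unadjusted p was under 0.05 for 2930 of 15089 genes (19.4%) in KO and 973 of 15131 (6.43%) in A537T at 10 weeks, and for 1616 of 14729 (11%) and 2016 of 14789 (13.6%) at 30 weeks. On recovered reads edgeR also called 0 genes in each, and DESeq2 called 715, 90, 285 and 476, with none of the 5 among them (their lowest adjusted p in any setting other than leaving out a library was 0.185).

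The change with age was tested as the difference between the mutant effects at 30 and at 10 weeks. For Elac2 this was -0.12 on the log2 scale in KO (SE 0.26, adjusted p = 0.891) and -0.42 in A537T (SE 0.28, adjusted p = 0.585, limma). In A537T, Elac2 thus went from 0.19 at 10 weeks to -0.23 at 30 weeks, with a 95% interval of the difference from -1.04 to 0.20. For Elac1 the difference was -0.04 in KO and -0.07 in A537T. The largest among the other 3 genes was 0.27 for Hsd17b10 in KO (adjusted p = 0.776). Across all genes 0% passed this test in either line, with an unadjusted p under 0.05 in 12.1% of genes in each.

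Across libraries, the 5 genes did not vary as one block. Over the 18 libraries, which share the depth and tissue differences given above, Pearson's r of log2(RPM + 1) was highest between Trmt10c and Hsd17b10 (0.65), followed by Elac2 with Hsd17b10 (0.51). Elac2 and Elac1 had an r of 0.17, and Elac1 and Hsd17b10 of -0.18. At 30 weeks (9 libraries) the r with the log2 share of seminal vesicle counts was -0.87 for Elac2, -0.77 for Hsd17b10, -0.76 for Trnt1, -0.51 for Elac1 and -0.08 for Trmt10c. At 10 weeks (9 libraries) it was -0.49 for Elac2, -0.63 for Hsd17b10, 0.01 for Trnt1, 0.67 for Elac1 and -0.17 for Trmt10c. The seminal vesicle share differs between the groups, so these values describe the libraries and not an effect of genotype.

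**Figure D4:**
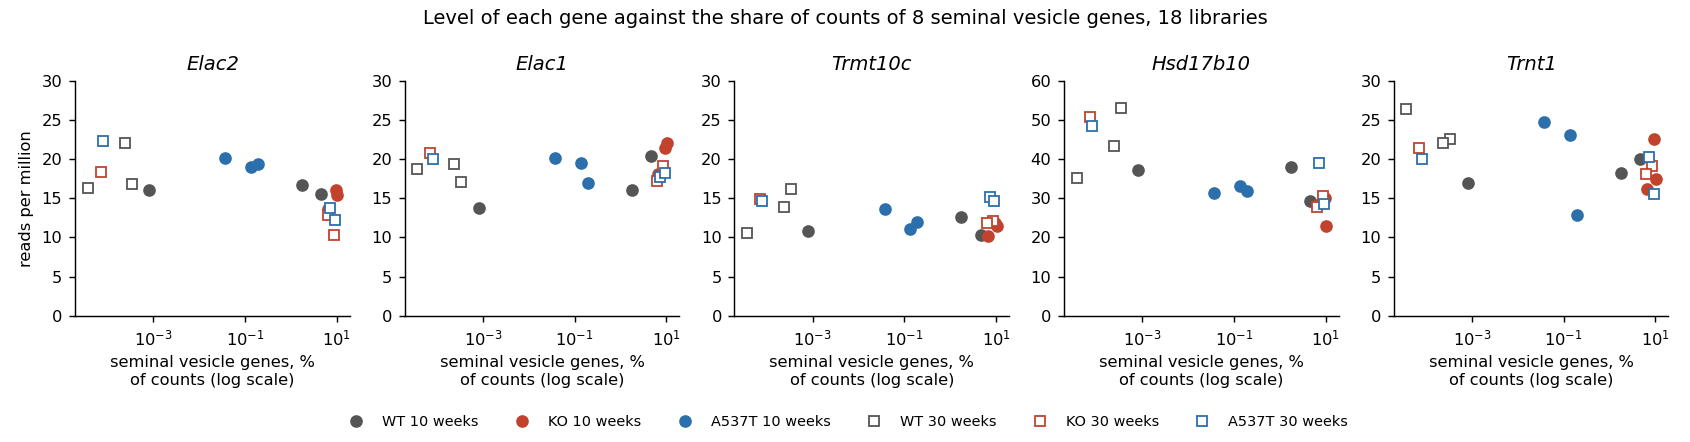
RPM of each gene (vertical axes, from 0) against the percentage of counts from 8 seminal vesicle genes (horizontal axis, log scale) in the 18 libraries, with 10 weeks as filled circles, 30 weeks as open squares, WT in grey, KO in red and A537T in blue. At 30 weeks, Elac2 lies at 10.3 to 13.7 in the 4 libraries with seminal vesicle RNA and at 16.4 to 22.4 in the other 5, whereas Trmt10c does not separate them.

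The genes whose levels ran most like each of the 5 over the 18 libraries, among 14067 genes tested in all tables, were listed by Pearson's r. For Elac2 they were Slc35e1 (r = 0.94), Gm48582 (0.90) and Tnfsf13 (0.89), and for Elac1 Arpc5 (0.95), Gnai2 (0.91) and Atxn2 (0.90). Trmt10c was most like Galnt7 (0.92), Laptm4a (0.89) and Ube2j1 (0.87). Hsd17b10 ran with Ano6 (0.95), Kctd1 (0.95) and Akap17b (0.94). Trnt1 had the weakest likeness, to Erg28 (0.77), Mxra8 (0.74) and Hhat (0.74). None of the 5 genes was among the 3 nearest of another.

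Other steps of tRNA processing were read from 5 lists with 32 genes, of which 31 had enough counts to be tested and Rpp25 did not. In all 4 comparisons 0 of 31 passed the test. The median of the 31 was -0.16 for KO and -0.05 for A537T at 10 weeks, then -0.02 and 0.01 at 30 weeks (log2 fold change), beside a median over all genes of -0.01, 0.01, -0.01 and -0.01. At 10 weeks 21 of 31 were below WT in each mutant, where 49.4% of all genes in KO and 51.5% in A537T were above. At 30 weeks 18 of 31 were below in KO and 14 of 31 in A537T, with 49.1% and 49.3% of all genes above. Scaling every library to the same total moved the median of all genes at 10 weeks to 0.20 in KO and 0.15 in A537T, and 21 of 31 lay below that median in each, as before. With the skeletal muscle score as a covariate, 18 of 31 in KO and 11 of 31 in A537T were below WT at 10 weeks.

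Nuclear RNase P, the ribonucleoprotein that removes the 5′ leader of nuclear tRNAs, showed the largest shift in its protein subunits. In KO at 10 weeks 9 of 10 tested subunits had a value below WT, with a median log2 fold change of -0.50 and a range from -0.64 (Rpp30) to 0.25 (Pop7), where 49.4% of all genes were above WT. None passed the test, and 1, Rpp30, had groups apart, where 26% of all genes had groups apart in either direction and 14.3% were lower. Scaled to the same total, 9 of 10 were still below WT with a median of -0.29, and the median of all genes was 0.20. With the seminal vesicle score as a covariate, a setting added after the data were seen, the median was -0.15, with 8 of 10 below. In A537T at 10 weeks 8 of 10 were below (median -0.21), which became 4 of 10 (median 0.11) with the skeletal muscle score as a covariate. At 30 weeks the medians were 0.03 in KO and 0.13 in A537T, where 9 of 10 were above WT.

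The 2 subunits of nuclear RNase P with the highest counts were Rpp14 and Pop5. Rpp14 had a mean of 86.8 ± 3.02 normalized counts (SD, n = 3) in KO and 143 ± 57.3 in WT at 10 weeks (log2 fold change -0.62, adjusted p = 0.326 by limma). Its spread in WT was far wider than in KO. In the same WT libraries as deposited with A537T, Rpp14 had 110.8 ± 45.1 normalized counts, so its WT value depended on the deposited version. Pop5 had 94.0 ± 10.4 in KO against 109.6 ± 15.9 in WT (log2 fold change -0.22, adjusted p = 0.516).

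tRNA splicing, in which the Tsen endonuclease removes introns and the Rtcb ligase joins the exons, had 11 tested genes with medians of -0.16, -0.04, -0.06 and 0.01 in the order KO and A537T at 10 weeks, KO and A537T at 30 weeks. Rtcb, the ligase, had log2 fold changes of -0.27, -0.06, -0.20 and -0.22 in that order (adjusted p = 0.339 to 0.949 by limma). Ddx1, a helicase of the ligase complex, had -0.28, -0.04, -0.07 and -0.01. The lowest value of all 5 lists was that of Tsen54, an endonuclease subunit, in A537T at 10 weeks: 41.7 ± 8.49 normalized counts (SD, n = 3) against 78.3 ± 11.8 in WT. This log2 fold change of -0.90 had an unadjusted p of 0.00745 and an adjusted p of 0.746, and Tsen54, chosen here after its values were seen, stood at -0.16, -0.02 and 0.12 in the other comparisons. In the same WT libraries as deposited with KO, Tsen54 had 65.3 ± 10.1 normalized counts (SD, n = 3), so its WT value depended on the deposited version.

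Ssb, the La protein that shields the 3′ ends of precursors before Elac2 cuts, had log2 fold changes of -0.20, -0.05, -0.05 and -0.01 in the same order (adjusted p = 0.452 to 0.974 by limma). Xpot, the export receptor of mature tRNAs, was at 0.07, 0.37, 0.42 and 0.41. For Xpot in KO at 30 weeks the unadjusted p was 0.0315 and the adjusted p 0.429, and its groups overlapped. In ribosome-associated quality control, where Ankzf1 makes the tRNA ends that Elac1 and Trnt1 repair, the 4 genes had medians of 0.08, 0.07, -0.05 and -0.06. Tcf25, with the highest counts among them, had log2 fold changes of -0.03, -0.06, -0.20 and -0.19, and Ltn1, the ligase of this pathway, was at 0.14, 0.18, -0.08 and -0.08. The paralogs of Trmt10c, Trmt10a and Trmt10b, had values of 0.32 and 0.34 in KO at 10 weeks and -0.07 and 0.03 at 30 weeks. In A537T they had 0.27 and -0.31 at 10 weeks and -0.70 and -0.23 at 30 weeks, and none of these passed the test. Trmt10b in KO at 10 weeks had groups apart, higher than WT, where 26% of all genes had groups apart in either direction.

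**Figure D5:**
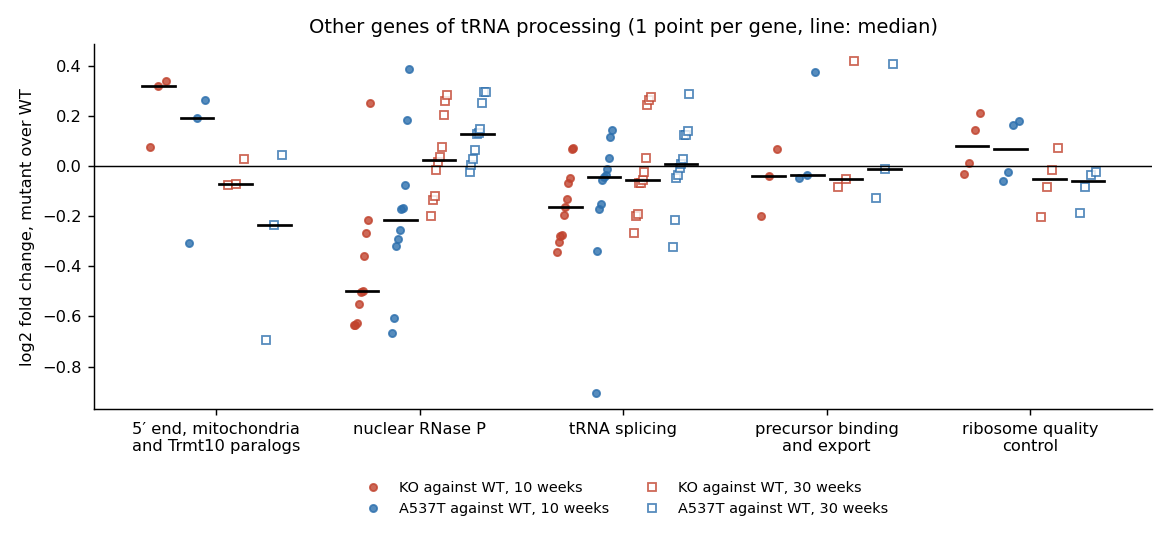
Log2 fold changes (vertical axis) of the 31 tested other genes of tRNA processing in 5 lists (horizontal axis), with KO in red, A537T in blue, 10 weeks as filled circles and 30 weeks as open squares, 1 point per gene and a line at the median. The nuclear RNase P subunits lie mostly below 0 in KO at 10 weeks, with a median of -0.50, and around 0 at 30 weeks, and 0 of the 31 genes passed the test in any comparison.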

How the data were processed

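The authors trimmed the reads with Trim Galore 0.4.1, aligned them with STAR 2.7.3a to GRCm38.p6, quantified them with Salmon and imported gene counts. The deposited signal values are these counts over the DESeq2 size factor of the library, in tables of 6 libraries (1 mutant group and the WT group of its age). Columns carry no genotype; those in both tables of an age are WT. Division by the value of a single read gave the recovered reads (99.99% or more of values were whole within 0.1). They are rounded estimates and not exact reads. In each WT library, 53.6 to 64.05% of detected genes had different recovered reads as deposited with KO and with A537T. Elac2 in 10AF, for example, had 127 with KO and 122 with A537T.

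Genes with a mean of at least 10 normalized counts entered limma 3.58.1 (R 4.3.3, mean trend) as log2(normalized count + 1), adjusted by Benjamini-Hochberg at 0.05, and mutant effects between ages by an interaction term. The Elac1 to Elac2 ratio was tested by exact permutation. edgeR 4.0.16, DESeq2 1.42.0, 2 other scalings, pseudocount 8, minimum means of 1 and 100, tissue scores as covariates and leaving out libraries were alternatives. Scripts were tested on simulated data. Sequences and coordinates come from the GENCODE annotation of GRCm38.

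Named genes are the 5 members, the 2 genes of highest mean count in each list, any past the threshold, and the 3 genes most like each member; Pop7, Rpp30, Trmt10a, Tsen54 and Zbtb8os are named outside this rule, chosen after their values were seen. The members and lists were chosen with earlier results of these data known.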

Additional observations from a re-analysis of the deposited data

Results flagged for a closer look

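In 2 genes of the tRNA processing lists the mutant libraries were all on one side of WT at 10 weeks and all on the other side at 30 weeks. Both were found by searching the 5 members and the 31 other tested genes in both lines. The share of all genes that reverse in this way was not counted, so these 2 are not set apart from other genes. In single comparisons the groups were apart for 26% (10 weeks) and 16.3% (30 weeks) of all genes in KO. For A537T the shares were 11.9% and 18.6%.

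Rpp30, a subunit of nuclear RNase P, had 23.2, 24.6 and 18.3 normalized counts in KO at 10 weeks against 30.3, 24.99 and 54.1 in WT, and 35.7, 41.9 and 34.9 in KO at 30 weeks against 30.6, 27.6 and 33.7 in WT. The KO effect at 30 weeks minus that at 10 weeks was 0.92 on the log2 scale (SE 0.40, unadjusted p = 0.0435, adjusted p = 0.394 by limma). The values are low counts, and 14AF differed from 11AF by less than 1 normalized count.

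Zbtb8os (archease), a cofactor of the tRNA ligase, had 100.01, 104 and 96.8 normalized counts in A537T at 10 weeks against 105, 125 and 156 in WT, and 142, 171 and 156 at 30 weeks against 138, 133 and 112. The A537T effect at 30 weeks minus that at 10 weeks was 0.63 (SE 0.23, unadjusted p = 0.0202, adjusted p = 0.323 by limma). In KO the same difference for Zbtb8os was 0.58 (adjusted p = 0.453), with the same WT libraries. None of these tests passed the threshold.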

How the results depend on the processing

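No paired analysis was possible because the columns carry no replicate number. Across the alternatives, the one call among the 5 genes was Hsd17b10 in KO at 10 weeks without 10AF (adjusted p = 0.0363). Of 219 values of the 5 genes under planned settings other than leaving out a library, 200 kept their direction and 19 turned, all without passing the test (lowest adjusted p 0.185), and the 10 WT levels from the A537T tables moved by less than 1 SD. Where the cause is not given by the setting itself, the cause was not tested.

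The number of genes called, 0 in each comparison, became 715, 90, 285 and 476 with DESeq2 in KO and A537T at 10 and then 30 weeks. Without a mean trend it was 1 for KO and 2 for A537T at 10 weeks, and with a minimum mean of 1 it was 2 in A537T at 10 weeks. In A537T at 30 weeks it was 3 with the seminal vesicle score and 1 without 7AF and 9AF, a setting added after the data were seen. Leaving out each library gave 0 to 2886 in KO and up to 50 in A537T at 10 weeks (highest without 10AF), up to 944 in KO (without 5AF) and up to 1224 for A537T (without 8AF) at 30 weeks, and 0 to 30 (without 14AF) and 0 to 382 (without 8AF) for the change with age in KO and A537T.

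These log2 fold changes turned. The 10 that turned under another scaling or total stayed on the same side of the median of all genes, which that scaling moved to between -0.19 and 0.20, so relative to other genes they did not turn. At 10 weeks, scaling to the same total gave 0.016 for Trnt1 in KO, and 0.11 for Trmt10c and 0.055 for Trnt1 in A537T. Leaving muscle and seminal vesicle genes out of the total gave 0.012 for Trnt1 in KO and 0.011 for Trmt10c in A537T. The muscle score gave -0.069 for Elac1 in KO and, in A537T, -0.019 for Elac1, 0.089 for Trmt10c and 0.12 for Hsd17b10. At 30 weeks in KO, the total without those genes gave 0.019 for Trmt10c, the seminal vesicle score 0.033 for Hsd17b10, and leaving out 4AF and 6AF 0.025 for Trmt10c and 0.099 for Hsd17b10. At 30 weeks in A537T, Elac1 became 0.019 and 0.10 under the 2 scalings and 0.0034 with DESeq2. With the seminal vesicle score Elac2 was 0.19, Elac1 0.043 and Hsd17b10 0.016, and without 7AF and 9AF they were 0.23, 0.037 and 0.064. Leaving out 4AF and 6AF, or 7AF and 9AF, left a single mutant library. For the change with age, the same total gave -0.044 for Trmt10c in KO and -0.11 for Hsd17b10 in A537T.

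Leaving out each library in turn, the sign was not fixed for Trmt10c (-0.15 to 0.046) and Trnt1 (-0.22 to 0.18) in A537T at 10 weeks, for Elac1 (-0.0093 to 0.093) and Trmt10c (-0.19 to 0.079) in KO at 30 weeks, and for Elac1 (-0.067 to 0.037) and Trmt10c (-0.0093 to 0.26) in A537T at 30 weeks. The same held for the change with age of Elac2 (-0.27 to 0.038), Elac1 (-0.11 to 0.0090) and Trnt1 (-0.14 to 0.040) in KO and of Hsd17b10 (-0.15 to 0.20) in A537T, and for the Elac1 to Elac2 ratio in A537T at 10 weeks (-0.26 to 0.045). The 71 to 587 reads per gene and 3 libraries per group limit the precision.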
